A study of Mus musculus with 6 samples.

Results

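Hmgcs1, Idi1, Sqle, Lss, Cyp51, Srebf2 and Insig1 are 7 genes of cholesterol synthesis and of its control by the transcription factor SREBP2. They were chosen by name, from a list of gene symbols, with earlier results of these data known. Values of all genes given beside the 7 therefore describe them and do not test them as a set. In all, 18384 genes had at least 1 count in any of 6 mouse liver libraries, and all 7 were found in every library. Liver RNA came from 2 separate models of liver disease, each with 3 conditions and 1 library per condition, and was sequenced on a BGISEQ-500 instrument. All libraries came from male mice labelled as C57BL/6 (C57BL/6J in the methods) and as 6 to 8 weeks old. With treatments of 16 weeks (high-fat diet) and 6 weeks (carbon tetrachloride), this is read here as the age at the start. The age at collection is not given and may differ between the models. The methods give groups of 6 mice that were fasted for 8 h before the livers were taken.

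In the diet model, SD is the control diet library, which is labelled as a chow control, HFD is the library of mice on high-fat diet, and HFD plus JT003 is the library of a group that also received JT003. JT003 is a peptide agonist of the adiponectin receptors AdipoR1 and AdipoR2, injected daily into the peritoneum. The diet lasted 16 weeks and JT003 was given for 4 weeks. The labels call the HFD libraries NASH (nonalcoholic steatohepatitis). The study gives its mice that also had a methionine- and choline-deficient diet a group name of their own, and that diet is not part of the names of the sequenced groups. Its methods, however, name high-fat diet alone NAFLD, and keep NASH for the model with the deficient diet in the last 4 weeks. Its results also use NASH for high-fat diet alone. The libraries are read here as high-fat diet only, which the labels do not settle. In the CCl4 model, the corn oil library is the control for the solvent, CCl4 is the library of mice injected with carbon tetrachloride in corn oil every 3 days for 6 weeks, and CCl4 plus JT003 had JT003 for 3 weeks in addition. Neither the labels nor the methods say if 1 mouse or a pool of mice stands behind each library. No condition has a replicate, so each test here compares 2 libraries and not 2 conditions, and its intervals cover counting error only.

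Hepatocytes make cholesterol from acetyl-CoA through the mevalonate pathway. When sterols in the endoplasmic reticulum are low, the escort protein SCAP carries the SREBP2 precursor to the Golgi, where proteases release its active part, which enters the nucleus and raises transcription of nearly every enzyme of the pathway. When sterols are high, INSIG proteins hold SCAP and SREBP2 in the endoplasmic reticulum. HMGCS1 makes HMG-CoA at the entry of the pathway, IDI1 interconverts the 5-carbon isoprenoid units, SQLE oxidises squalene, LSS closes the sterol rings to lanosterol, and CYP51 removes a methyl group from lanosterol. Srebf2 encodes SREBP2 itself and Insig1 encodes one of the INSIG proteins, and both are known targets of SREBPs.

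Promoter sequences are shown because the 7 genes are known as targets of one factor, and SREBPs bind sterol regulatory elements, often beside sites of the factors NF-Y (the CCAAT box) and Sp1 (the GC box). RefSeq promoter windows of build GRCm38.p6 were matched by symbol for 6 of the 7 genes (the entry for Sqle was missing), and 170 bases before the annotated start are printed 5′ to 3′ on the gene's own strand. The capitals mark matches, on either strand, to the letters TCACCNCA (a sterol regulatory element), CCAAT or GGGCGG, which were picked after the promoters had been read. The 3 promoters with the sterol element come first, those of Hmgcs1 (chr13:119690181-119690350 on the forward strand), Srebf2 (chr15:82147099-82147268 on the forward strand) and Cyp51 (chr5:4104698-4104867 on the reverse strand), followed for comparison by Idi1 (chr13:8885436-8885605 on the forward strand) and Insig1 (chr5:28071242-28071411 on the forward strand).
Hmgcs1: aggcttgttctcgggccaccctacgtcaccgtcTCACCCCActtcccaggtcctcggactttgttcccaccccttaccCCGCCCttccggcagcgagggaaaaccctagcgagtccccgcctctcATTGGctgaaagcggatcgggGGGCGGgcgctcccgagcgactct
Srebf2: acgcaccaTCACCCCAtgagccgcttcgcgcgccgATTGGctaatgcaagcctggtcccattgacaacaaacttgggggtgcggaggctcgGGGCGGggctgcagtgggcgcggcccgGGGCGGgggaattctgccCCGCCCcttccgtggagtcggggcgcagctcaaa
Cyp51: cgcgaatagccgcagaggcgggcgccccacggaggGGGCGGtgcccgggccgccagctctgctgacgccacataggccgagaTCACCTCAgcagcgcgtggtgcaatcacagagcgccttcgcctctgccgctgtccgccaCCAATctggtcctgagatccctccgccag
Idi1: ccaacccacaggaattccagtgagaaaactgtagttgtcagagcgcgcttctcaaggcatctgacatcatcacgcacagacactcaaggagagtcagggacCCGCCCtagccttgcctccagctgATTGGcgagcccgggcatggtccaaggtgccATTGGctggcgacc
Insig1: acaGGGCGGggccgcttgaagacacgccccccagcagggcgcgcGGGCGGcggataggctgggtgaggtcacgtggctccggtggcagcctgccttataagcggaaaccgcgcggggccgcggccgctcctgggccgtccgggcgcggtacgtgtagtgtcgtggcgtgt

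The element TCACCCCA began 137 bases before the start of Hmgcs1 and 162 bases before that of Srebf2, and TCACCTCA began 88 bases before the start of Cyp51. In windows from 250 bases before to 50 bases after the start, 3 of the 6 genes held TCACCNCA, against 4.42% of 32851 RefSeq windows. All 6 held CCAAT and all 6 held GGGCGG, against 37.4% and 35.7% of the windows. Since the letters were picked after these promoters had been read, the shares describe them and are no test of enrichment. The letters of the motifs do not overlap each other in the printed stretches. A match describes the letters in this window only, and no binding was measured here. The expression files were made on another build, mm9, so no coordinates are given for the counted genes.

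Total counts per library lay between 19374236 and 20184557. Hepatocyte markers (Alb, Apoa1, Apob, Ttr, Serpina1c and Hnf4a) were detected in every library at a summed level of 84793 to 98139 CPM (read counts scaled to a common library size, with TMM factors), and no marker of any list was at 0. The summed level of 6 genes of mitosis was 197 CPM in CCl4 against 3.39 to 17.0 in the other 5 libraries. That of 6 markers of stellate cells and myofibroblasts was 54.4 in SD, 160 in HFD, 79.6 in HFD plus JT003, 62.1 in corn oil, 254 in CCl4 and 128 with CCl4 plus JT003. Markers of macrophages summed to 277, 273 and 385 in the diet libraries and to 63.0, 136 and 200 in the CCl4 model, in the same order of conditions. The markers within a list did not move as one. Alb alone held 56573 CPM of the hepatocyte sum in SD and 71744 in CCl4. In HFD over SD, 3 of the 6 hepatocyte markers were above 0 and 3 below, with Apoa1 lowest at a log2 ratio of -0.79. With JT003 on CCl4 all 6 were below 0, from -0.31 for Ttr to -0.053 for Alb. Between CCl4 and CCl4 plus JT003, 4 of the 6 macrophage markers (Cd5l, Clec4f, Vsig4 and Csf1r) had intervals above 0 with JT003, while Cd68 and Adgre1 had intervals below 0, at -0.60 (-0.87 to -0.34) and -0.35 (-0.67 to -0.034). The collagen genes Col1a1 and Col3a1 held 117 and 104 of the 254 CPM of the stellate list in CCl4, whereas Acta2, the smooth muscle actin of myofibroblasts, was below corn oil there at -0.89 (-1.26 to -0.54), and Lrat, an enzyme of retinol storage, was at 0.84 (0.55 to 1.16) with JT003 on CCl4. The part of these cell populations in the results was not tested, and in bulk liver fewer cells of a type and less RNA per cell cannot be told apart.

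Hmgcs1 (gene ID 208715) had 28.4 FPKM in SD, 24.57 in HFD and 32.8 with HFD plus JT003, and 18.53 in corn oil, 46.5 in CCl4 and 28.87 with CCl4 plus JT003. FPKM is the authors' read number of a gene scaled to its length and to the reads of the library. CCl4 was the highest library and corn oil the lowest, and the level with JT003 lay between them. The counts behind these levels were 1283 in corn oil, 3342 in CCl4 and 1994 with CCl4 plus JT003. On the scale of log2 ratios used below, Hmgcs1 was higher in CCl4 than in corn oil by 1.09 (95% interval 1.00 to 1.19), a difference of 2.13-fold, and in CCl4 plus JT003 it was at 0.592 times its level in CCl4, a log2 ratio of -0.76 (-0.84 to -0.68). In the diet model it moved less, with a log2 ratio of -0.33 in HFD over SD and 0.40 in HFD plus JT003 over HFD.

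Idi1 (319554) had 9.63 FPKM in SD and 10.09 in HFD, and 21.87 in HFD plus JT003. The same gene had 9.14 FPKM in corn oil, 17.67 in CCl4 and 17.48 with CCl4 plus JT003. SD, HFD and corn oil thus lay close together and the other 3 libraries between 17.48 and 21.87. With JT003 on HFD the count went from 579 to 1262, a log2 ratio of 1.10 (0.96 to 1.25). CCl4 with and without JT003 could not be separated beyond counting error, with a log2 ratio of -0.082 (-0.21 to 0.045).

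Sqle (20775), the enzyme that oxidises squalene, was a low gene with the widest range of the 7. It had 2.7 FPKM in SD, 2.12 in HFD and 4.44 with HFD plus JT003. The CCl4 model gave 3.25 FPKM in corn oil, 10.05 in CCl4 and 8.18 with CCl4 plus JT003. Both CCl4 libraries stood above the other 4, and the TMM-scaled level of the highest library was 4.58 times that of the lowest. Its counts were 116 in HFD and 244 in HFD plus JT003, a log2 ratio of 1.04 (0.73 to 1.38), and 175 and 561 in corn oil and CCl4, a log2 ratio of 1.38 (1.14 to 1.65). These low counts gave the widest intervals of the 7.

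Lss (16987) varied least, by 1.44-fold between its highest and lowest library. It had 2.38 FPKM in SD, 2.54 in HFD, 3.71 in HFD plus JT003, 2.3 in corn oil, 3.58 in CCl4 and 3.41 with CCl4 plus JT003. The 3 higher libraries were the same as those of Idi1. Its log2 ratio was 0.53 (0.32 to 0.74) in HFD plus JT003 over HFD and 0.39 (0.18 to 0.61) in CCl4 over corn oil.

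Cyp51 (13121) had 11.61 FPKM in SD, 8.24 in HFD and 14.01 with HFD plus JT003, so that HFD was the lowest of all 6 libraries. It had 9.12 FPKM in corn oil, 18.75 in CCl4 and 16.03 with CCl4 plus JT003. Its log2 ratio of -0.62 (-0.76 to -0.48) in HFD over SD was the lowest of the 7, and with JT003 it was 0.75 (0.62 to 0.89) over HFD. After CCl4 it was 0.80 (0.68 to 0.93) over corn oil.

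Srebf2 (20788) had 7.84 FPKM in SD, 7.46 in HFD and 10.01 with HFD plus JT003. In the CCl4 model it had 5.83 FPKM in corn oil and 11.18 in CCl4, and 7.04 once JT003 was added. The transcript of the factor was thus highest in CCl4, and its counts of 525 in corn oil, 1043 in CCl4 and 632 with CCl4 plus JT003 gave a log2 ratio of 0.70 (0.55 to 0.86) with CCl4 and of -0.73 (-0.88 to -0.59) with JT003 on CCl4. The ratio of CCl4 plus JT003 over corn oil was -0.031 (-0.20 to 0.14), and 0.27 with library sizes taken as total reads. Messenger RNA does not show how much SREBP2 protein is cleaved and active, which was not measured in these files.

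Insig1 (231070) followed another order. It had 13.08 FPKM in SD, 32.7 in HFD and 43.75 with HFD plus JT003, and 24.42 in corn oil, 31.79 in CCl4 and 39.81 with CCl4 plus JT003. SD was the lowest library by a wide margin, at 37.6 CPM against 75.1 in corn oil, the next library up. Its count was 709 in SD and 1734 in HFD, a log2 ratio of 1.20 (1.07 to 1.33), whereas CCl4 was only 0.14 (0.037 to 0.25) above corn oil. The FPKM of Insig1 was 0.461 times that of Hmgcs1 in SD, 0.684 times in CCl4 and 1.32 to 1.38 times in the other 4 libraries.

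**Figure D1:**
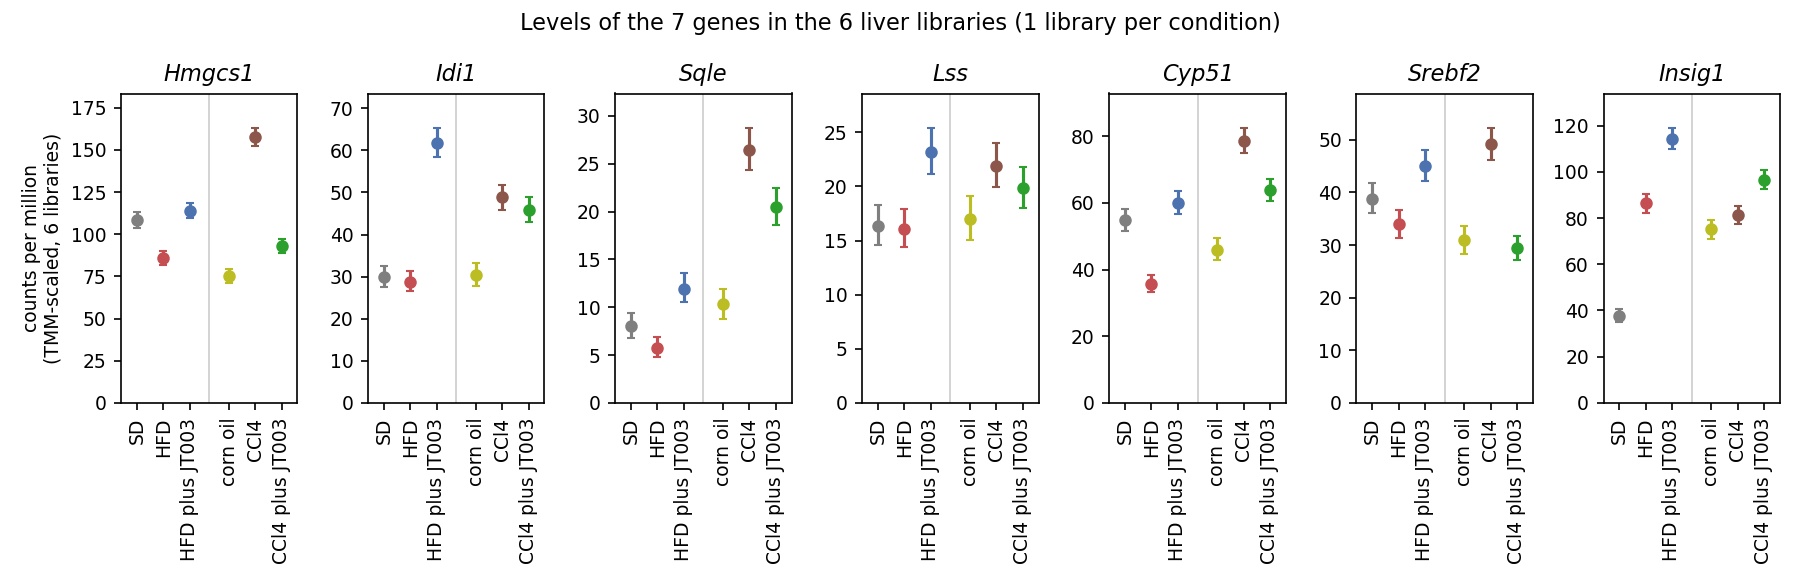
TMM-scaled CPM (linear axis from 0) of each of the 7 genes in the 6 libraries, with exact Poisson 95% intervals that cover counting error only. The diet libraries are left of the grey line and the CCl4 model is right of it. Idi1 and Lss are high in HFD plus JT003 and in both CCl4 libraries, Hmgcs1, Sqle, Cyp51 and Srebf2 are highest in CCl4, and Insig1 is lowest in SD.

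Of the 5 pairs of neighbouring libraries in the order of levels, the neighbours were apart beyond counting error in 4 pairs for Hmgcs1, Sqle, Cyp51 and Insig1, in 2 for Idi1 and Srebf2 and in 1 for Lss. For Lss that pair was CCl4 plus JT003 over corn oil. HFD plus JT003 and SD were not apart for Hmgcs1, at 114 and 108 CPM. CCl4 and HFD plus JT003 were not apart for Srebf2, at 49.2 and 45.1. This order runs across 2 separate experiments. The FPKM of the 7 genes summed to 75.6 in SD, 87.7 in HFD, 131 in HFD plus JT003, 72.6 in corn oil, 140 in CCl4 and 121 with CCl4 plus JT003. Of these sums, the 5 enzymes held 54.7, 47.6, 76.8, 42.3, 96.5 and 74.0 in the same order, so that HFD was below SD for the enzymes and above it for all 7.

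The question of the first comparison was what the high-fat diet did to the liver. Of the 7 genes, 1 was called between HFD and SD, Insig1, the brake on SREBP processing, which was higher in HFD. The call asks for 2-fold or more either way and for an adjusted p under 0.001, from an exact binomial test (two-sided) of the reads of both libraries with Benjamini-Hochberg adjustment over all genes tested. Of all genes, 5.44% were called, 2.96% as higher and 2.49% as lower. Of the other 6 genes, 4 had intervals below 0 (Hmgcs1, Sqle, Cyp51 and Srebf2), as did 34.1% of all genes with at least 100 counts, and Idi1 and Lss had values of -0.056 and -0.027, which became 0.068 and 0.097 with total reads as library size. The median of the 7 was -0.19, and that of all genes was 0.00.

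The second comparison asked what JT003 did on the diet. All 7 genes were higher in HFD plus JT003 than in HFD, with log2 ratios from 0.40 for Hmgcs1 to 1.10 for Idi1 and intervals that all lay above 0. The isomerase gene Idi1 and the squalene epoxidase gene Sqle were called, 2 of 7, where 1.67% of all genes were called, 0.767% as higher and 0.901% as lower. Intervals above 0 were seen in 24.8% of all genes with at least 100 counts. The median of the 7 was 0.53 against -0.01 for all genes. Sqle was close to the threshold, and on the scale of FPKM plus 1 its log2 ratio was 0.80 and it was not called.

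HFD plus JT003 stood above SD for all 7 genes. Idi1, at 1.04, and Insig1, at 1.60 (1.48 to 1.73) or 3.03-fold, were called, where 5.98% of all genes were called, 3.2% as higher and 2.78% as lower. Intervals above 0 were found for 6 of the 7 and for 29.6% of all genes with at least 100 counts. Hmgcs1 was at 0.072 (-0.014 to 0.16), so that it did not separate from SD beyond counting error. Their median was 0.50. The HFD library enters both comparisons above, and SD and HFD plus JT003 each enter 2 of the 3 diet comparisons.

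The CCl4 comparison asked what repeated toxic injury did. All 7 genes were higher in CCl4 than in corn oil, with log2 ratios from 0.14 for Insig1 to 1.38 for Sqle and intervals above 0, which 33.7% of all genes with at least 100 counts had as well. Hmgcs1, the entry enzyme, and Sqle were called, 2 of 7, where 7.26% of all genes were called, 4.8% as higher and 2.46% as lower. The median of the 7 was 0.71 against 0.00 for all genes. With total reads as library size the median of the 7 was 0.94 and that of all genes 0.23, and Cyp51 was also past the threshold, at 1.03.

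JT003 on CCl4 went with lower values of most of these genes, and with none past the threshold. Here 0 of 7 were called by the exact binomial test, while 5 passed its adjusted p without the fold limit, as did 24.1% of all genes, and 4.46% of all genes were called, 1.91% as higher and 2.55% as lower. Hmgcs1, Srebf2, Sqle and Cyp51 had intervals below 0, at -0.76, -0.73, -0.36 and -0.29, as did 35.8% of all genes with at least 100 counts. Idi1 and Lss had values of -0.082 and -0.13 with intervals that held 0. Insig1 was at 0.26 (0.17 to 0.35), the one value above 0. Over the 7, the median was -0.29. This comparison shares the CCl4 library with the one before.

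In CCl4 plus JT003 over corn oil, 6 of the 7 genes had intervals above 0, as did 25.6% of all genes with at least 100 counts. Sqle was called, at 1.02 (0.77 to 1.29), where 5.06% of all genes were called, 3.29% as higher and 1.77% as lower. The median of the 7 was 0.40, against 0.03 for all genes. With total reads the 2 medians were 0.70 and 0.32.

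**Figure D2:**
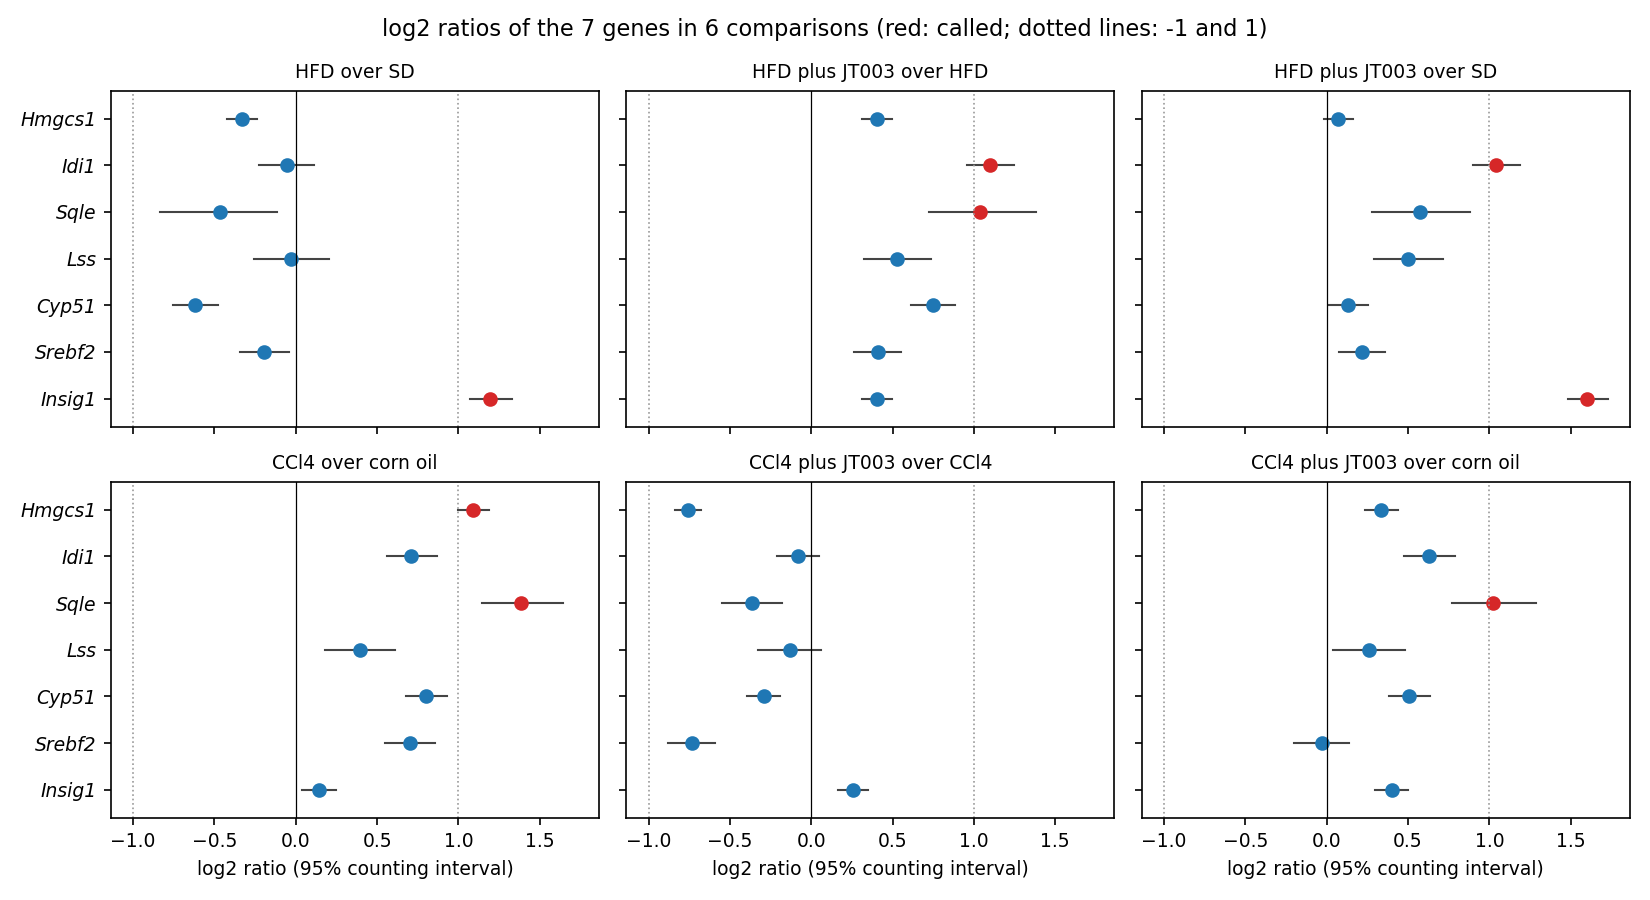
log2 ratios of the 7 genes in the 6 comparisons, with 95% Clopper-Pearson intervals that cover counting error only and dotted lines at the thresholds of -1 and 1; red points are the called genes. All 7 points are above 0 in HFD plus JT003 over HFD and in CCl4 over corn oil, and 6 of 7 are below 0 in CCl4 plus JT003 over CCl4.

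The authors' table of CCl4 and CCl4 plus JT003 gives a pooled CCl4 column, which sums to 2.97 times the CCl4 library and lies below it in 24 genes, by 0.99 counts at most. It therefore appears to contain that library, and its remainder gives the one further set of CCl4 counts here. Whether these come from other mice or from more reads of the same RNA is not known. In CPM scaled over these columns, Hmgcs1 was at 163 in the CCl4 library and 177 in the remainder, Cyp51 at 81.3 and 82.4, and Srebf2 at 50.9 and 48.5. These 3 genes thus differed little between the CCl4 library and the remainder. Idi1 was at 50.5 and 79.1, Sqle at 27.4 and 47.0, Lss at 22.6 and 27.4, and Insig1 at 84.0 and 120. The log2 ratio of the remainder over the CCl4 library ran from -0.070 for Srebf2 to 0.78 for Sqle, and over all 11202 genes with at least 100 counts the 95th percentile of its size was 0.75. All 7 genes were higher in the remainder than in corn oil, from 0.63 for Srebf2 to 2.16 for Sqle.

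Against the remainder, all 7 genes were lower in CCl4 plus JT003, from -0.26 for Insig1 to -1.14 for Sqle. Insig1 therefore reversed its direction between the 2 sources of CCl4 counts, from 0.26 against the CCl4 library. Sqle alone was called against the remainder, so 1 of 7 was called there, where 4.58% of all genes were called and 3.31% were called lower, against 0 of 7 for the CCl4 library.

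**Figure D3:**
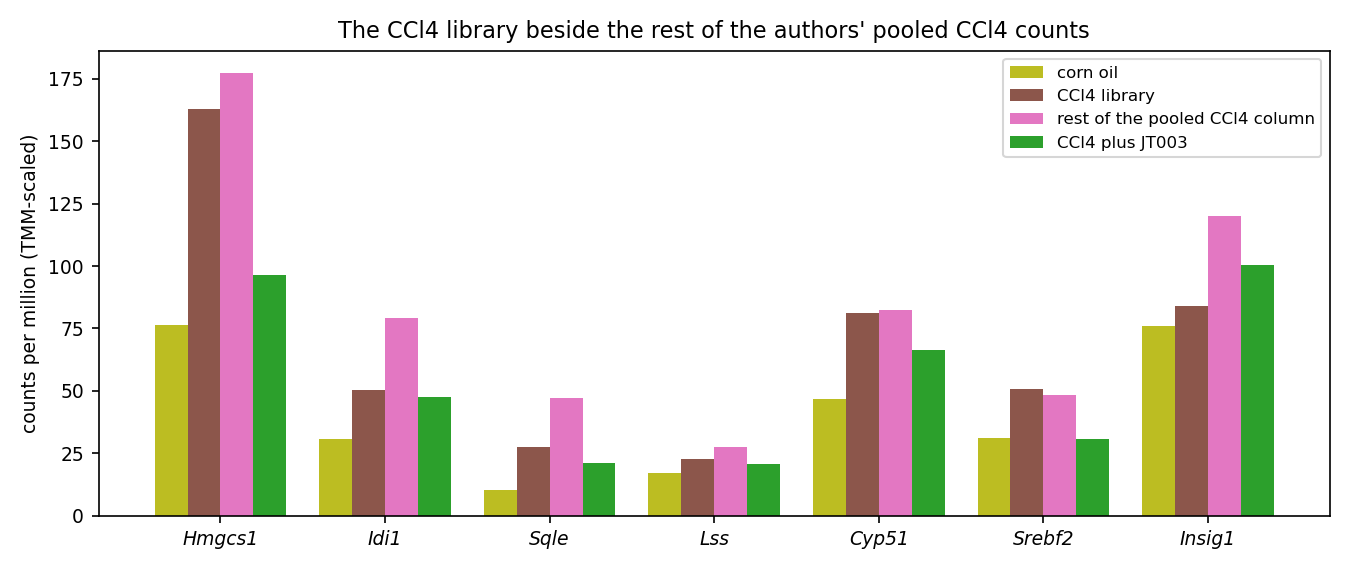
TMM-scaled CPM (linear axis from 0) of the 7 genes in corn oil, the CCl4 library, the remainder of the authors' pooled CCl4 column after the CCl4 library was subtracted, and CCl4 plus JT003, with no error bars since each bar is 1 column of counts. Every gene is higher in both CCl4 sources than in corn oil, and Insig1 in CCl4 plus JT003 lies above the CCl4 library and below the remainder.

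A list of 14 other enzymes of cholesterol synthesis was read beside the 5 enzymes above. For this list and those below, the shares of all genes called are those given above for each comparison. Among all genes with at least 100 counts, intervals lay above 0 in 24.8% and below 0 in 24.7% for HFD plus JT003 over HFD. Those shares were 33.7% and 30.0% for CCl4 over corn oil, and 26.6% and 35.8% for CCl4 plus JT003 over CCl4. In HFD plus JT003 over HFD, 8 of the 14 had intervals above 0 and 1 below, the median log2 ratio was 0.25, and 1 was called, Msmo1 (sterol C4-methyl oxidase), at 1.01. Squalene synthase (Fdft1), which makes the substrate of SQLE, went from 528 counts in SD and 759 in HFD to 1484 with JT003, a log2 ratio of 0.94 (0.82 to 1.07) with JT003. In CCl4 over corn oil, 10 of the 14 had intervals above 0 and 1 below, the median was 0.59, and 2 were called higher, Mvd at 1.26 and the sterol dehydrogenase gene Nsdhl at 1.33. In CCl4 plus JT003 over CCl4, 9 of the 14 had intervals below 0 and 2 above, the median was -0.34, and Nsdhl was called lower, at -1.29. Fdft1 was one of those above 0, at 0.45 (0.36 to 0.55). Against the remainder, 10 of the 14 had intervals below 0 and 2 above, with a median of -0.33, and Nsdhl was again called lower, at -1.15. Msmo1 turned from 0.28 against the CCl4 library to -0.39 (-0.51 to -0.28), and the sterol reductase gene Tm7sf2 from -0.20 to 0.31 (0.22 to 0.39), while Fdft1 stayed above 0, at 0.57.

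In HFD over SD the 14 enzymes split, with 5 intervals above 0 and 4 below and a median of 0.12. Of all genes with at least 100 counts, 26.7% had intervals above 0 there and 34.1% below, so the enzymes were near these shares. The shares were 29.6% and 36.2% in HFD plus JT003 over SD, and 25.6% and 31.2% in CCl4 plus JT003 over corn oil. Mvd, which makes isopentenyl diphosphate, was called higher at 1.27 on counts of 33 and 88. Hsd17b7, a sterol ketone reductase, was called lower at -1.88, with 2461 counts in SD against 710 in HFD and 1105 with JT003. In HFD plus JT003 over SD, 8 of the 14 had intervals above 0 and 5 below with a median of 0.36, Msmo1 at 1.68 and Fdft1 at 1.37 were called higher, and Hsd17b7 was called lower. In CCl4 plus JT003 over corn oil, 8 had intervals above 0 and 3 below with a median of 0.18, and Mvd and Fdft1 were called higher, at 1.36 and 1.11.

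**Figure D4:**
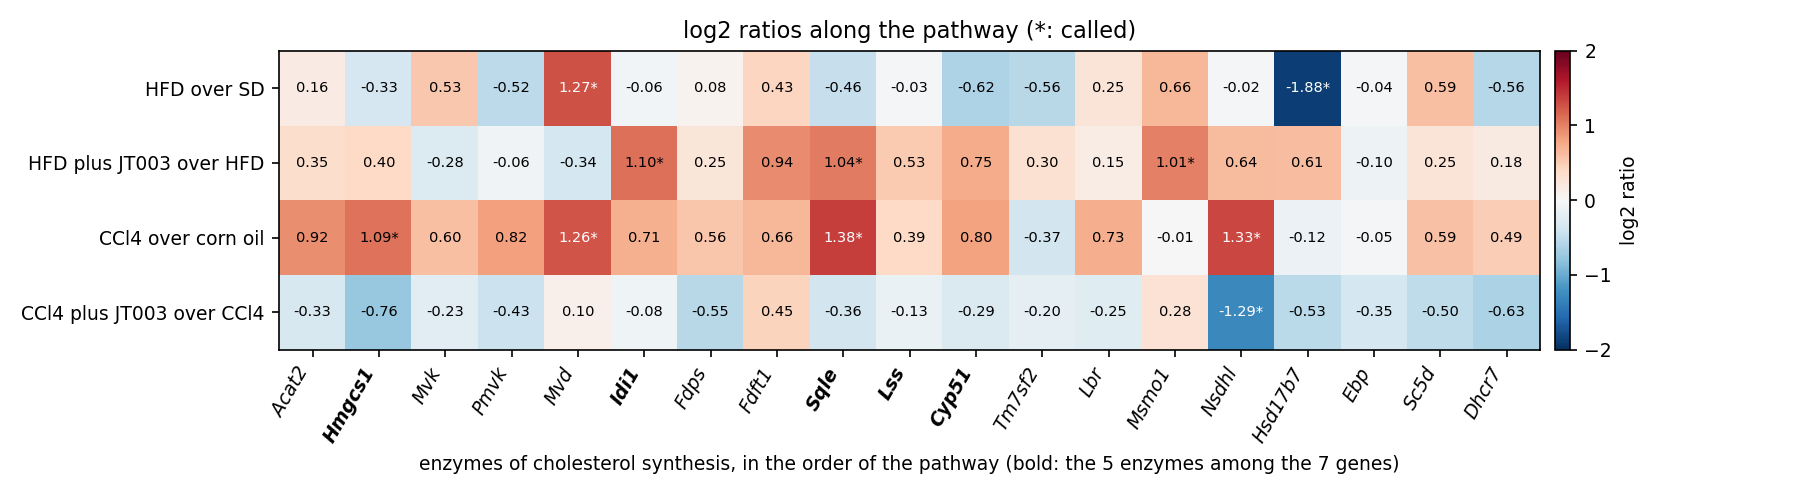
log2 ratios of enzymes of cholesterol synthesis in the order of the pathway (columns, the 5 enzymes among the 7 genes in bold and the 14 others in plain type) in 4 comparisons (rows), from blue (lower) through white to red (higher), with an asterisk on called genes. HFD plus JT003 over HFD and CCl4 over corn oil are mostly red and CCl4 plus JT003 over CCl4 is mostly blue, while Hsd17b7 in HFD over SD is the lowest value, at -1.88.

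Among 5 genes of SREBP processing, Scap, the escort, had values between -0.67 and -0.026 in all 6 comparisons and was not called. Insig2, the second INSIG gene, differed from Insig1. It went from 14455 counts in SD to 5158 in HFD and 3749 with JT003, while corn oil and CCl4 had 9138 and 9183 and the addition of JT003 gave 2895. It was called lower in HFD over SD at -1.58, in CCl4 plus JT003 over CCl4 at -1.68 and in both JT003 libraries over their controls, at -2.06 and -1.96. Insig1 was above 0 in each of these 4 comparisons, though against the remainder of the pooled column it was below 0 with JT003 on CCl4. Srebf1, the gene of SREBP1, which serves fatty acid synthesis, had counts of 664 (SD), 2008 (HFD) and 2905 (HFD plus JT003). It was called higher in HFD over SD at 1.50. In HFD plus JT003 over HFD it was the highest of the 5, at 0.51, and was not called. The study, by contrast, reports that JT003 lowered SREBP-1C, a product of this gene, in livers on this diet, by PCR in groups of 6 mice. It counts SREBP-1C among genes of cholesterol synthesis, whereas all 7 genes here were higher in HFD plus JT003 than in HFD. The study's PCR also gave lower FASN, ACC1 (Acaca) and SCD1 with JT003. Between HFD and HFD plus JT003 here, Fasn went from 1714 to 2731 counts and Acaca from 1041 to 1614. Scd1 went the study's way, from 53169 to 37697.

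Of 3 targets of SREBP2 outside synthesis (Aacs, Stard4 and Tmem97), 0 were called with JT003 on HFD or with CCl4 by the exact binomial test, although all 3 had intervals above 0 in CCl4 over corn oil, with a median of 0.62. In the remainder over corn oil, which has more counts and no share of all genes beside it, all 3 had intervals above 0 as well. There 1, Stard4, was called. Aacs, which makes acetoacetyl-CoA from ketone bodies, was called higher in HFD over SD at 2.42, on counts of 164 and 944. All 3 had intervals above 0 in HFD plus JT003 over SD as well, with a median of 1.07, and 2 were called, Aacs at 2.15 and the sterol carrier gene Stard4 at 1.07. With JT003 on HFD, Stard4 was at 0.34, Tmem97 at 0.35 and Aacs at -0.27.

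The 8 genes of fatty acid synthesis were all above 0 in CCl4 over corn oil, with a median of 1.60 and 6 called, among them Fasn at 1.75 and Acaca at 1.80. All 8 were below 0 with JT003 on CCl4, with a median of -0.86 and 2 called, Fasn at -1.51 and Acly at -1.39. Against the remainder, 7 of the 8 were below 0, with a median of -0.52 and the same 2 called, while Me1, the malic enzyme gene, was above 0 at 0.19 (0.12 to 0.25). The remainder over corn oil gave 7 of 8 above 0, with Me1 at -0.36. In HFD plus JT003 over HFD, 5 of the 8 had intervals above 0 and 2 below, with a median of 0.28 and 0 called by the exact binomial test.

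Of 5 targets of LXR, Abca1, Abcg1, Abcg5 and Abcg8 serve sterol export, while Mylip encodes no exporter. In HFD over SD, 4 of the 5 had intervals above 0 and Abcg5, part of the exporter to bile, was called at 1.01. In CCl4 over corn oil, 3 had intervals below 0 and Mylip, a ubiquitin ligase gene, was called lower at -1.07, on counts of 181 and 104, while Abcg1, a sterol exporter gene, was at 0.46 (0.050 to 0.89). The remainder over corn oil differed, with the exporter genes Abca1 at 0.48 (0.40 to 0.57), against -0.26 in the CCl4 library, and Abcg1 at 1.10 (0.76 to 1.48), which was called, and with Mylip at -0.49 (-0.76 to -0.22), which was not. The isoprenoid branch, which leads from the same intermediates to ubiquinone and prenylated proteins, had medians between -0.34 and 0.13 over its 5 genes in all 6 comparisons, and Fntb was its one called gene, lower in CCl4 plus JT003 than in CCl4 at -1.12 and than in corn oil at -1.07. Cyp27a1, an enzyme of bile acid synthesis first listed with that branch, had values between -0.69 and 0.38 and was not called.

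Across the 6 libraries, Pearson's r between pairs of the 7 genes ran from -0.021 for Hmgcs1 and Insig1 to 0.99 for Idi1 and Lss, with a median of 0.62, and 20 of 21 pairs were above 0. Each r describes 6 points that share their library, its depth and its scaling. Among 2157 genes with at least 100 counts in a library and an SD of at least 0.5 in log2 level, 8 of the 10 most like the mean of the 7 are named here. They were Gas2l3, Ncaph, Adh1 and Hmgb2, between 0.92 and 0.90, and Ces1d, Nfil3, Baiap2 and Cyp39a1, between 0.90 and 0.88. The most opposite were Bhlhe41 at -0.96, Itga10, Neat1, Cyp4a12a and Hyal1. Of these, Gas2l3, Ncaph, Bhlhe41 and Itga10 reached 100 counts in 1 library only, so they entered the ranking through the library in which they were highest, which for Gas2l3 and Ncaph was CCl4. Adh1, for instance, had 18270, 28658 and 42783 counts in the diet libraries and 23299, 55588 and 47893 in the CCl4 model. For single genes, the closest were Acaca for Hmgcs1 at 0.97, Ces1d for Idi1 and for Lss at 0.96, Cyp39a1 for Sqle at 0.98, Txnip for Cyp51 at 0.93, Egr1 for Srebf2 at 0.91 and, on counts of 24 to 154, Brca2 for Insig1 at 0.98.

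A read shared by several genes is split between them in the authors' counts, so a count that is not whole shows sharing. Within 0.005 of a whole number, the counts of Sqle, Srebf2 and Insig1 were whole in all 6 libraries, those of Hmgcs1 and Idi1 in 3, and those of Lss and Cyp51 in none. The counts of Lss and Cyp51 in all 6 libraries, and of Hmgcs1 and Idi1 in 3 libraries each, thus include split reads. How many reads were split was not measured, and a whole count does not exclude sharing.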

How the data were processed

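Liver RNA was measured in 6 libraries of 2 models, 1 per condition. Per the labels, the authors' processing notes name HISAT, Bowtie2, RSEM and mm9, without versions or roles. The deposited expected count, an estimated number of reads per gene made by the authors, is not normalized, and the deposited FPKM is scaled by the authors to transcript length and library reads. The authors' 4 comparison tables also hold fold changes, p-values and adjusted p-values, which were not used; 7 other expression columns in them were not used either. From the table that sets CCl4 beside CCl4 plus JT003 the pooled CCl4 column was used, and the CCl4 library was subtracted from it.

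Expected counts were rounded and library sizes scaled by TMM (edgeR 4.0.16, R 4.3.3) within a model, or over 6 libraries for levels. The test of each gene with at least 1 read was an exact binomial test, conditional on its total and two-sided (scipy 1.17.1, Python 3.11.15). Calls needed a Benjamini-Hochberg adjusted p under 0.001 over all genes and a log2 ratio of 1 or more in size (prior count 2). Intervals are 95% Clopper-Pearson intervals. The method was tested on simulated data that held counting error only, so that test does not cover spread between mice. The spread between mice is unknown. Alternatives used total reads, size factors of DESeq2 1.42.0, a minimum of 10 counts, an adjusted p under 0.05, no fold threshold, log2 of FPKM plus 1 or 0.1, edgeR's exact test given a coefficient of variation between mice of 0.2 or 0.4, a prior count of 0.5, and the pooled CCl4 counts or their remainder. The remainder was also set against the lists, and Cyp27a1 was taken out of the isoprenoid list, both after the data were seen. Named genes are the 7 genes, those of the lists, and those most like them by Pearson's r under the limits given in the text; the members and lists were chosen with earlier results of these data known. Promoter sequences are from RefSeq, build GRCm38.p6. Some genes of the lists and of the likeness ranking are not reported here, and list counts are given without them.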

Additional observations from a re-analysis of the deposited data

Results flagged for a closer look

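For 4 of the 7 genes the log2 ratio with JT003 had opposite signs in the 2 models, each with an interval that did not hold 0. Hmgcs1 was at 0.40 on HFD and -0.76 on CCl4, Sqle at 1.04 and -0.36, Cyp51 at 0.75 and -0.29, and Srebf2 at 0.41 and -0.73. Against the remainder of the pooled CCl4 column the signs were opposite in all 7, since Idi1 at -0.73, Lss at -0.41 and Insig1 at -0.26 then had intervals below 0 as well. Over all genes with at least 100 counts, 24.8% had intervals above 0 with JT003 on HFD and 35.8% below 0 with JT003 on CCl4. How many of all genes had opposite signs was not counted, so these counts of the 7 have no such share beside them. With 1 library per condition the difference between the models was not tested. The diet comparison and the CCl4 comparison share no library. In both models the JT003 library is compared with the library of the injury, and the level of mitosis genes in that library was 197 CPM in CCl4 and 5.72 in HFD, whose part in the difference was not tested.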

How the results depend on the processing

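The median of the 7 genes and the number called were recomputed under each alternative for the 6 comparisons, and each gene's log2 ratio as well. Size factors of DESeq2, a minimum of 10 counts, an adjusted p under 0.05 and a prior count of 0.5 changed no direction and no call of the 7 genes. With no fold threshold, the number called was 3 in HFD over SD, 7 in HFD plus JT003 over HFD, 4 in HFD plus JT003 over SD, 6 in CCl4 over corn oil, 5 in CCl4 plus JT003 over CCl4 and 5 in CCl4 plus JT003 over corn oil, where the shares of all genes called in the same order were 23.6%, 14.3%, 26.8%, 26.3%, 24.1% and 20.6%. When edgeR's exact test was given a coefficient of variation between mice of 0.2 or 0.4, 0 of the 7 were called in any comparison, so no call held once a spread between mice of that size was assumed. The share of all genes called under these settings is not given here. With 1 library on each side few genes may pass, so the 0 does not set the 7 apart from other genes. On the scale of FPKM plus 1, 1 was called in HFD plus JT003 over HFD. With total reads, FPKM plus 1 and FPKM plus 0.1, the median was 0.94, 0.88 and 0.94 in CCl4 over corn oil and 0.70, 0.68 and 0.70 in CCl4 plus JT003 over corn oil; total reads move the median of all genes to 0.23 and 0.32 there, and to 0.12 in HFD over SD. Under the same 3 scales, Idi1 in HFD over SD turned to 0.068, 0.061 and 0.067, Lss to 0.097, 0.067 and 0.090, and Srebf2 in CCl4 plus JT003 over corn oil to 0.27, 0.24 and 0.27. With the pooled CCl4 column or its remainder, the median in CCl4 plus JT003 over CCl4 was -0.55 or -0.65, Insig1 turned to -0.11 or -0.25, and 1 gene, Sqle at -1.13, was called with the remainder, where TMM ran over 3 columns (-0.26 and -1.14 above come from TMM over 4); the cause was not tested. No paired analysis was possible because each condition has 1 library, all numbered 1, and for the same reason no replicate could be left out.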
